A study of Solanum lycopersicum with 21 samples.

Results

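Jasmonate, the wound and defence hormone of plants, is made from linolenic acid released from chloroplast membranes. A lipoxygenase adds oxygen to the fatty acid, allene oxide synthase turns the product into an unstable epoxide, and allene oxide cyclase closes it into the ring of 12-oxo-phytodienoic acid. A reductase in the peroxisome, OPR3, then reduces that ring before the side chain is shortened to jasmonic acid. The 5 genes of these steps described here were taken from the leaf count table by their locus IDs, 5 of the 35039 IDs it lists. They are LOXD (Solyc03g122340.3), a lipoxygenase of the chloroplast, AOS1 (Solyc04g079730.1) and AOS2 (Solyc11g069800.1), both allene oxide synthases, AOC (Solyc02g085730.3), the cyclase, and OPR3 (Solyc07g007870.3), the reductase. The count table pairs no ID with a name, so the names are those under which the IDs were selected. A RefSeq gene table of assembly SLM_r2.1 pairs 0 of the IDs with its genes. It holds 1 gene under each of the 5 names or as a synonym, on the chromosome that the ID carries, which is 3 for LOXD, 4 for AOS1, 11 for AOS2, 2 for AOC and 7 for OPR3.

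All 21 libraries came from leaves of tomato cultivar M82, in 7 groups of 3 biological replicates. The strigolactone-depleted line 6936, silenced in the synthesis gene CCD7, was sampled under irrigation, after recovery from 1 drought (recovery 1) and after recovery from 2 droughts (recovery 2). Wild-type plants sprayed with 5 µM GR24 5DS, a synthetic strigolactone, 24 h before sampling formed 1 group, and unsprayed wild type formed the same 3 groups as the depleted line. All plants were watered when sampled, per the labels. Line 6936 is a single line, with 70 to 80% less strigolactone in roots and exudates. The level of CCD7 itself and of leaf marker genes was not analysed here, since no source used here pairs those genes with IDs. Irrigated, recovery 1, recovery 2 and sprayed groups carry the time labels 0, 31, 76 and 24. Neither drought history nor GR24 spray can thus be told apart from sampling time. None of the 7 groups is labelled as sprayed without GR24, so GR24 and the act of spraying cannot be told apart either. Each replicate held leaves of at least 3 plants and the labels name 5 plants. If replicates of a group shared plants, the p-values given here are too small.

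Library totals ranged from 19267602 to 35433511 counts, and TMM factors, which correct for RNA composition, from 0.76 to 1.24. The factors were lower in the depleted line under irrigation, at 0.76 to 0.89 against 0.905 to 1.1 in the wild type. They were also lower at recovery 2, at 0.885 to 0.898 against 1.05 to 1.15, and overlapped at recovery 1. Levels are TMM-normalised CPM, counts divided by the scaled library total. All 5 genes passed the filter on low counts, together with 20373 IDs in all, and were read in all 21 libraries. Counts per library ran from 10 to 381 for AOS1 and from 184 upward for the other 4 genes. A gene was called when its edgeR adjusted p, over the 20373 IDs, was under 0.05. Counts in leaf RNA cannot separate fewer cells of a type from less RNA per cell.

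AOS2, the allene oxide synthase with counts of 184 to 2243, was the gene that stood apart between the genotypes. Under irrigation it was at 97.9, 35.4 and 39.2 CPM in the depleted line (replicates 3, 6 and 7), against 29.1, 21.6 and 31.1 CPM in the wild type (replicates 6, 7 and 14). At recovery 1 it was at 34.5, 71.4 and 43.5 CPM in the depleted line (replicates 16, 17 and 12), against 15.8, 22.9 and 23.7 CPM in the wild type (replicates 1, 13 and 4). At recovery 2 it was at 38.3, 36.0 and 23.7 CPM in the depleted line (replicates 13, 11 and 8), against 22.3, 17.9 and 5.02 CPM in the wild type (replicates 8, 11 and 9). In each of the 3 conditions every depleted library lay above every wild-type library. How many of all IDs separate in this way was not computed, here or for the separations of other genes below. Between the genotypes edgeR called 34.4% of IDs under irrigation, 19.6% at recovery 1 and 26.6% at recovery 2, in either direction. Across conditions the ranges overlapped, with a median of 38.3 CPM over the 9 depleted libraries and 22.3 CPM over the 9 wild-type libraries.

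The AOS2 difference passed the test averaged over the 3 conditions but within none of them. The log2 fold change of the depleted line over the wild type was 1.08 ± 0.49 (SE) under irrigation, 1.26 ± 0.50 at recovery 1 and 1.11 ± 0.50 at recovery 2. The edgeR adjusted p was 0.101, 0.0817 and 0.105 in these conditions. A change of the difference with recovery was not detected, with interactions of 0.18 ± 0.69 at recovery 1 and 0.04 ± 0.69 at recovery 2 (log2, SE, edgeR adjusted p = 0.963 and 0.984). Averaged over the 3 conditions in the same fit, a comparison added after the data were seen, it was 1.15 ± 0.29, or 2.22-fold (95% interval 1.45 to 3.40, edgeR adjusted p = 0.00291). AOS2 kept this call under all 24 alternatives tried, with log2 fold changes of 0.94 to 1.28 and adjusted p of 0.000206 to 0.00798. The call rate among all IDs was high in that average: 27.6% of the 20373 IDs were called higher in the depleted line. Of the other 4 genes in that average, LOXD was called lower, and AOS1, AOC and OPR3 were not called.

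LOXD, whose enzyme feeds this branch with oxygenated fatty acid, ran the other way. Under irrigation it was at 78.8, 49.2 and 35.2 CPM in the depleted line, against 75.3, 64.6 and 84.9 CPM in the wild type. At recovery 1 it was at 77.4, 52.3 and 45.3 CPM in the depleted line, against 68.1, 65.7 and 77.6 CPM in the wild type. At recovery 2 it was at 55.0, 52.0 and 44.9 CPM in the depleted line, against 175, 90.5 and 45.1 CPM in the wild type. The groups overlapped in all 3 conditions, and at recovery 2 the wild-type library of replicate 8 stood well above the other libraries.

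The call of LOXD leaned on that library. At recovery 2 the log2 fold change of the depleted line over the wild type was −1.03 ± 0.36 (SE, edgeR adjusted p = 0.0399), while 11.7% of IDs were called lower in that comparison. Without wild-type replicate 8 it was −0.42, with an adjusted p of 0.343, while leaving out wild-type replicate 11 or any 1 of the 3 depleted libraries also ended the call but left the value at −0.95 to −1.12. Averaged over the conditions it was −0.59 ± 0.20 (SE, edgeR adjusted p = 0.0222), against a background of 24.9% of IDs called lower. Without wild-type replicate 8 that average was −0.39, with an adjusted p of 0.0622.

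**Figure D1:**
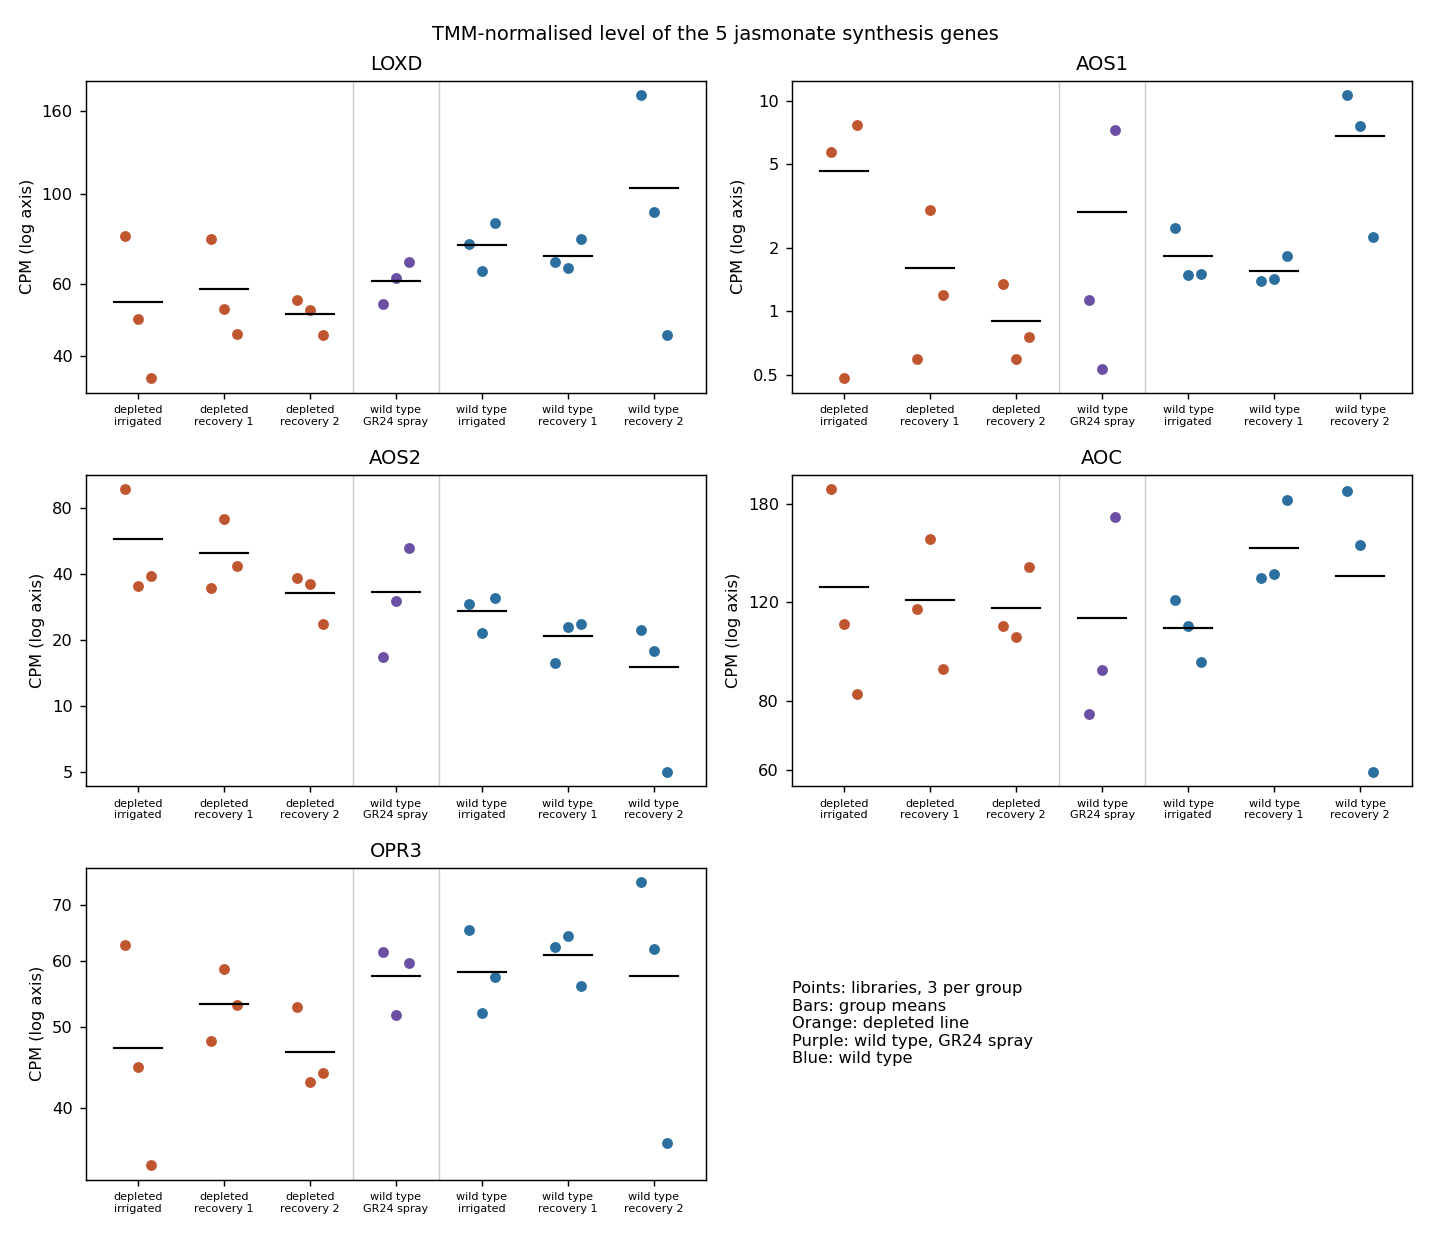
Level of each gene in CPM (log axis) in the 21 libraries, 3 points per group with a bar at the group mean, for the depleted line (orange), the GR24-sprayed wild type (purple) and the unsprayed wild type (blue). AOS2 is higher in every depleted library than in the wild-type libraries of the same condition, while AOC and OPR3 overlap. The share of all IDs that separate like AOS2 was not computed.

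AOS1, the paralog with counts of at most 381 per library, varied widely between replicates in some groups and little in others. In the depleted line it was at 5.72, 0.479 and 7.68 CPM under irrigation, at 0.590, 3.02 and 1.19 CPM at recovery 1, and at 1.35, 0.596 and 0.750 CPM at recovery 2. In unsprayed wild type it was at 2.49, 1.48 and 1.50 CPM under irrigation, at 1.39, 1.42 and 1.82 CPM at recovery 1, and at 10.6, 7.58 and 2.24 CPM at recovery 2. Irrigated depleted plants thus held its lowest library, at 10 counts, beside 2 of its higher ones, a range of 16.0-fold within 1 group. In the wild type at recovery 1 its range was 1.31-fold.

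At recovery 2 the 3 depleted libraries of AOS1 all lay below the 3 wild-type libraries, in a comparison where edgeR called 11.7% of IDs lower. The log2 fold change was −2.91 ± 0.95 (SE, edgeR adjusted p = 0.0321), or 0.133-fold with a 95% interval of 0.0323 to 0.549. It lost its call without any of 5 libraries in turn, with log2 fold changes of −3.33 to −2.43. The exception was wild-type replicate 9, the lowest of that group. The gene differed by 1.34 ± 0.89 under irrigation and by 0.03 ± 0.90 at recovery 1 (log2, SE, edgeR adjusted p = 0.258 and 0.985). Whether the response to recovery 2 differed between the genotypes was tested as an interaction, which was −4.25 ± 1.30 (log2, SE). Its edgeR adjusted p of 0.057 missed the threshold, while DESeq2 called it at an adjusted p of 0.00711. In this interaction edgeR called 6.95% of IDs and DESeq2 11.6%. At an unadjusted edgeR p under 0.05 it was 1 of 5, AOS1, against 22.9% of IDs. For the other 4 genes the edgeR adjusted p of this interaction was 0.532 or more.

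AOC and OPR3, the steps after allene oxide, overlapped between genotypes in every condition. AOC ranged from 82.4 to 192 CPM in the 9 depleted libraries and from 59.6 to 190 CPM in the 9 wild-type libraries, with medians of 110 CPM in the depleted line and 133 CPM in the wild type. Its average log2 fold change over the conditions was −0.08 ± 0.22 (SE, edgeR adjusted p = 0.769), a fold of 0.943 with a 95% interval of 0.681 to 1.31. OPR3 ranged from 34.2 to 62.6 CPM in the depleted line and from 36.4 to 74.5 CPM in the wild type, with medians of 48.2 CPM in the depleted line and 62.0 CPM in the wild type. Its average was −0.27 ± 0.13 (SE, edgeR adjusted p = 0.0881), a fold of 0.831 with a 95% interval of 0.688 to 1.00. OPR3 was called lower in that average with upper-quartile factors (adjusted p = 0.0359), without irrigated depleted replicate 3 (0.0206) and without wild-type recovery 2 replicate 9 (0.0122). The average interval of AOC leaves out 2-fold changes, but its intervals in single conditions reach 2.09-fold under irrigation and 0.499-fold at recovery 2.

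Counts over only 5 genes say little beside such backgrounds. Under irrigation edgeR called 0 of 5, against 34.4% of IDs, and DESeq2 0 of 5, against 35.5%. At an unadjusted p under 0.05 it was 1 of 5, AOS2, against 44.6% of IDs. At recovery 1 edgeR called 0 of 5, against 19.6% of IDs, and DESeq2 called AOS2, against 23.1%. AOS2 was also the 1 gene at an unadjusted p under 0.05, against 34.0% of IDs. At recovery 2 edgeR called LOXD and AOS1 lower, 2 of 5, against 26.6% of IDs in either direction. There 3 of 5, with AOS2, had an unadjusted p under 0.05, against 39.7% of IDs. Averaged over the conditions 1 was called higher and 1 lower, against 52.5% of IDs in either direction. The median log2 fold change of the 5 genes was 0.25, −0.19 and −0.30 under irrigation and at recoveries 1 and 2, against 0.03, 0.00 and 0.02 over all IDs tested.

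**Figure D2:**
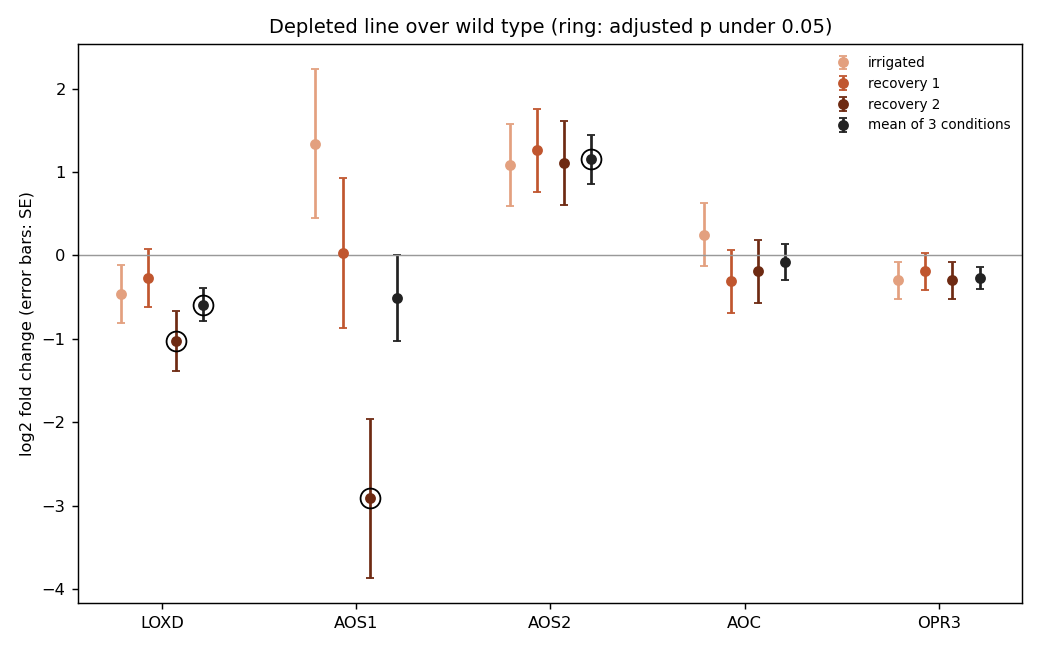
Log2 fold change of the depleted line over the wild type for each gene, under irrigation, at recovery 1, at recovery 2 and averaged over these conditions, with error bars of 1 SE and rings on values with an edgeR adjusted p under 0.05. AOS2 lies between 1.08 and 1.26 with all libraries, though its irrigated value was 0.45 without irrigated depleted replicate 3. AOS1 spans 1.34 to −2.91.

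The opposite course of AOS2 and LOXD was set out as the ratio of their read counts within each library, which no scaling between libraries can alter. The ratio itself also depends on transcript length, so its differences between libraries are meaningful and its level is not. AOS2 over LOXD was 1.24, 0.721 and 1.11 in irrigated depleted plants, against 0.386, 0.335 and 0.366 in irrigated wild type. It was 0.447, 1.36 and 0.959 at recovery 1 in the depleted line, against 0.232, 0.348 and 0.306 in the wild type. It was 0.695, 0.691 and 0.528 at recovery 2 in the depleted line, against 0.127, 0.198 and 0.111 in the wild type. All 9 depleted libraries, from 0.447 upward, lay above all 9 unsprayed wild-type libraries, which reached 0.386.

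The 10 pairs of genes were compared in this way after the levels had been seen. With an exact two-sided permutation test within the 3 conditions (8000 arrangements, smallest p 0.00025), the AOS2 to LOXD ratio was higher by 1.72 on the log2 scale in the depleted line, or 3.29-fold. Its exact permutation p was 0.00025 and 0.00125 after Benjamini-Hochberg adjustment over the 10 pairs. By the same exact permutation test AOS2 was also higher against OPR3 (2.68-fold, adjusted p = 0.00125), against AOC (2.35-fold, adjusted p = 0.00167) and against its paralog AOS1 (3.85-fold, adjusted p = 0.0225). These ratios share AOS2, so they are not independent results. The difference against AOS1 was uneven, with log2 values of 0.29 under irrigation, 1.47 at recovery 1 and 4.08 at recovery 2. AOC over LOXD was higher as well on average, by 1.40-fold (exact permutation, adjusted p = 0.0254). Its log2 difference was 0.7 under irrigation, −0.02 at recovery 1 and 0.78 at recovery 2. The share of pairs of other IDs that would pass, or separate in all libraries, was not computed. In the edgeR average over the conditions 52.5% of IDs were called in either direction. The ratio of AOC over OPR3 did not pass, at 1.14-fold (exact permutation, adjusted p = 0.309), and the other 4 ratios had adjusted p of 0.113 to 0.714. Leaving out any 1 of the 18 libraries left the AOS2 to LOXD difference at 1.60 to 1.87 on the log2 scale, with an exact permutation p of at most 0.0005. As the genotypes did not overlap in this ratio, that p had to stay low whichever library was left out.

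Within each genotype the AOS2 to LOXD ratio was lowest at recovery 2 by group mean. In the wild type its 3 libraries at recovery 2, at most 0.198, lay below all those at recovery 1 and under irrigation, of which the lowest was 0.232. In the depleted line the recovery 2 libraries, at most 0.695, lay below all irrigated ones, of which the lowest was 0.721, and overlapped with recovery 1. With 3 libraries against 3, the smallest exact permutation p is 0.10, so no test is given for these. Sprayed wild-type libraries were at 0.312, 0.484 and 0.768, with 1 library among the unsprayed wild type and 2 in the range of the depleted line.

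**Figure D3:**
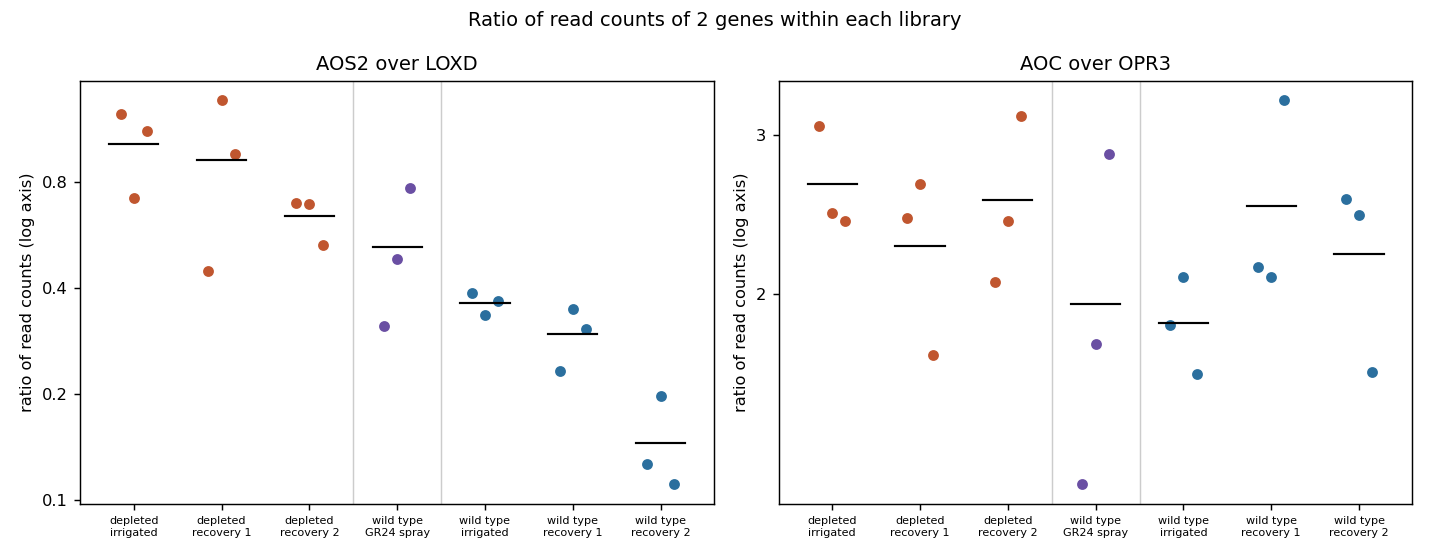
Ratio of read counts (log axis) within each library for AOS2 over LOXD and for AOC over OPR3, with 3 points per group and a bar at the group mean. On the left the depleted line, at 0.447 to 1.36, does not overlap the unsprayed wild type, at 0.111 to 0.386, and on the right the genotypes overlap.

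Recovery from drought changed none of the 5 genes at the threshold in edgeR. In the depleted line, where 8.41% of IDs were called at recovery 1 and 10.4% at recovery 2 against irrigation, 0 of 5 were called at either. At an unadjusted p under 0.05 there were 0 and 1 of 5, against 24.2% and 26.6% of IDs. DESeq2 called 0 of 5 at recovery 1 and AOS1 at recovery 2, against 13.5% and 14.6% of IDs. AOS1 averaged 0.899 ± 0.399 CPM at recovery 2 and 4.63 ± 3.72 CPM under irrigation (SD, n = 3 each), a difference of −2.36 ± 0.94 (log2, SE, edgeR adjusted p = 0.119, DESeq2 adjusted p = 0.0425). In the wild type at recovery 1 edgeR called 0 of 5, against 0% of IDs, and DESeq2 0 of 5, against 0.144%, with 0 of 5 at an unadjusted p under 0.05, against 6.77%. At recovery 2 in the wild type, where 4.89% of IDs were called, 0 of 5 were called by edgeR or by DESeq2, which called 11.3% of IDs. AOS1 was the 1 gene with an unadjusted p under 0.05, against 24.5% of IDs. AOS1 averaged 6.81 ± 4.24 CPM at recovery 2 and 1.83 ± 0.578 CPM under irrigation in the wild type (SD, n = 3 each), a difference of 1.89 ± 0.90 (log2, SE, edgeR adjusted p = 0.203).

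AOS2 was lower at recovery 2 than under irrigation by log2 values of −0.82 ± 0.49 in the depleted line and −0.86 ± 0.50 in the wild type (SE, edgeR adjusted p = 0.309 and 0.299). AOC averaged 151 ± 28.6 CPM at recovery 1 and 108 ± 13.6 CPM under irrigation in the wild type (SD, n = 3 each). All 3 of its recovery 1 libraries lay above the irrigated ones, by 0.48 ± 0.38 on average (log2, SE, edgeR adjusted p = 0.841). OPR3 had group means between 46.7 and 60.9 CPM over all 7 groups. Between the recoveries 0 of 5 were called in either genotype by edgeR or DESeq2, where 0% of IDs were called in the depleted line and 0.304% in the wild type. DESeq2 called 0.124% of IDs in the depleted line there and 3.09% in the wild type. At an unadjusted p under 0.05 there were 0 of 5 in the depleted line, against 8.58% of IDs, and 1 of 5 in the wild type, AOS1, against 14.2%. The interaction at recovery 1, where 1.51% of IDs were called, called 0 of 5 in edgeR and in DESeq2, which called 4.39% of IDs, with 0 of 5 at an unadjusted p under 0.05, against 11.9%.

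By edgeR 0 of the 5 genes passed the threshold after GR24 spray either, while 27.8% of IDs were called between sprayed and irrigated wild type. DESeq2 also called 0 of 5, against 28.8% of IDs, and 0 of 5 had an unadjusted p under 0.05, against 40% of IDs. AOS2 was at 16.8, 30.0 and 52.3 CPM in sprayed plants (replicates 8, 9 and 11), against 29.1, 21.6 and 31.1 CPM in irrigated wild type, a difference of 0.28 ± 0.49 (log2, SE, edgeR adjusted p = 0.707). AOS1 was at 1.13, 0.531 and 7.25 CPM in sprayed plants, against 2.49, 1.48 and 1.50 CPM in irrigated wild type, with a log2 fold change of 0.72 ± 0.88 (SE). Sprayed replicate 11 was the highest of its group for both synthases, and without it both changed sign, to −0.22 for AOS2 and −1.15 for AOS1. LOXD averaged 61.3 ± 7.18 CPM in sprayed plants and 75.0 ± 10.2 CPM in irrigated wild type (SD, n = 3 each). OPR3 averaged 57.6 ± 5.15 CPM in sprayed plants and 58.2 ± 6.71 CPM in irrigated wild type (SD, n = 3 each), and the 95% interval of its fold was 0.713 to 1.37. The depleted line and the sprayed plants were both set against irrigated wild type, so these comparisons share its 3 libraries.

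**Figure D4:**
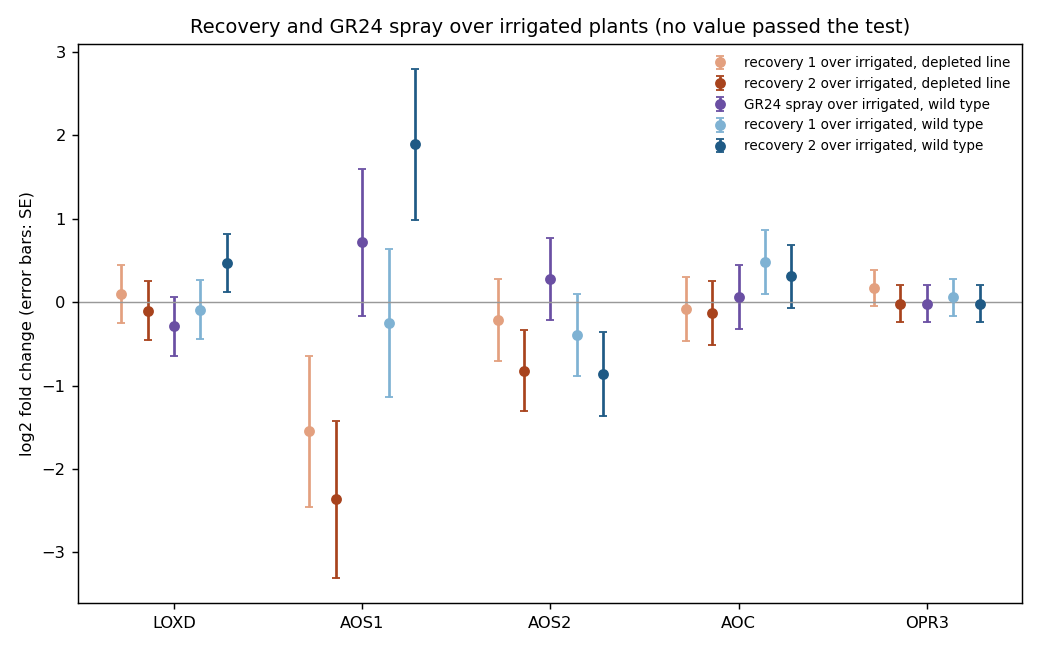
Log2 fold change of recovery 1 and recovery 2 over irrigation in each genotype, and of GR24 spray over irrigated wild type, for the 5 genes, with error bars of 1 SE. AOS1 ranges from −2.36 to 1.89 with the widest errors, and OPR3 from −0.02 to 0.17.

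Ordered by mean level, the groups formed no steps for most genes. For LOXD, AOS2, AOC and OPR3 each group overlapped in its libraries with the next in the order. Groups next to each other in such an order have the closest means, and the share of all IDs with such overlap was not computed. The depleted groups had the lowest means for LOXD and OPR3, and the unsprayed wild-type groups for AOS2. For AOS1 and AOC the genotypes were mixed in the order. How many of all IDs were ordered by genotype was not computed either. LOXD was lowest in the depleted line at recovery 2, with 50.6 CPM, and highest in the wild type at that recovery, with 104 CPM. AOS2 ran from 57.5 CPM in irrigated depleted plants to 15.1 CPM in the wild type at recovery 2, and AOC from 151 CPM in the wild type at recovery 1 to 108 CPM in irrigated wild type. The step between the lowest groups of AOS1 was the exception, with 0.899 ± 0.399 CPM in the depleted line at recovery 2 and 1.54 ± 0.243 CPM in the wild type at recovery 1 (SD, n = 3 each), and no overlap.

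Replicates of a group often deviated in several of these genes at once. How many other IDs deviated with them was not computed. In the wild type at recovery 2 replicate 8 was highest, replicate 11 next and replicate 9 lowest for all 5 genes, with 4.45-fold between the highest and lowest library for AOS2, 3.89-fold for LOXD, 3.19-fold for AOC and 2.05-fold for OPR3. Total counts of these 3 libraries were 33730321, 23326213 and 34798789, and their TMM factors 1.07, 1.15 and 1.05. Among irrigated depleted libraries replicate 3 was above its group mean on the log2 scale for 5 of 5 genes and replicate 6 for 0 of 5. Sprayed replicate 11 and irrigated wild-type replicate 6 were above their group means for 5 of 5.

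Over the 21 libraries, deviations of log2 CPM from the group mean correlated positively in all 10 pairs of genes. The share of positive pairs among other IDs was not computed, so this is not shown to be particular to these genes. The highest of the 10 pairs was AOS2 with AOC, at Pearson r = 0.84 and Spearman rho = 0.70 (permutation within groups, p = 0.00762 and 0.0172, adjusted over 10 pairs 0.0552 and 0.0616). Without the 2 libraries farthest out on AOS2, r was 0.74. The lowest was LOXD with AOS1, at r = 0.26 and rho = 0.21 (permutation within groups, p = 0.425 and 0.47, adjusted 0.425 and 0.47), and r was −0.01 without the 2 libraries farthest out. By the adjusted permutation p of these deviations, 0 of 10 pairs passed for r or rho, while 7 passed for r and 6 for rho unadjusted. The number that passed for r after adjustment ranged from 0 to 5 when 1 library was left out, and was 5 without irrigated depleted replicate 7 and 5 without depleted recovery 1 replicate 16. LOXD with AOS2, the pair that parted by genotype, had r = 0.71 and rho = 0.65 in these within-group deviations (permutation within groups, p = 0.0308 and 0.0214, adjusted 0.0552 and 0.0616), and r = 0.50 without the 2 libraries farthest out on LOXD. Levels in place of deviations hold the group differences as well. There r was 0.75 for LOXD with OPR3, 0.62 for AOC with OPR3 and 0.6 for LOXD with AOC. These pairs passed for r and rho (permutation over all libraries regardless of group, adjusted p for r = 0.0008, 0.0101 and 0.0101). The other pairs did not pass over levels, and LOXD with AOS2 had r = −0.01.

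**Figure D5:**
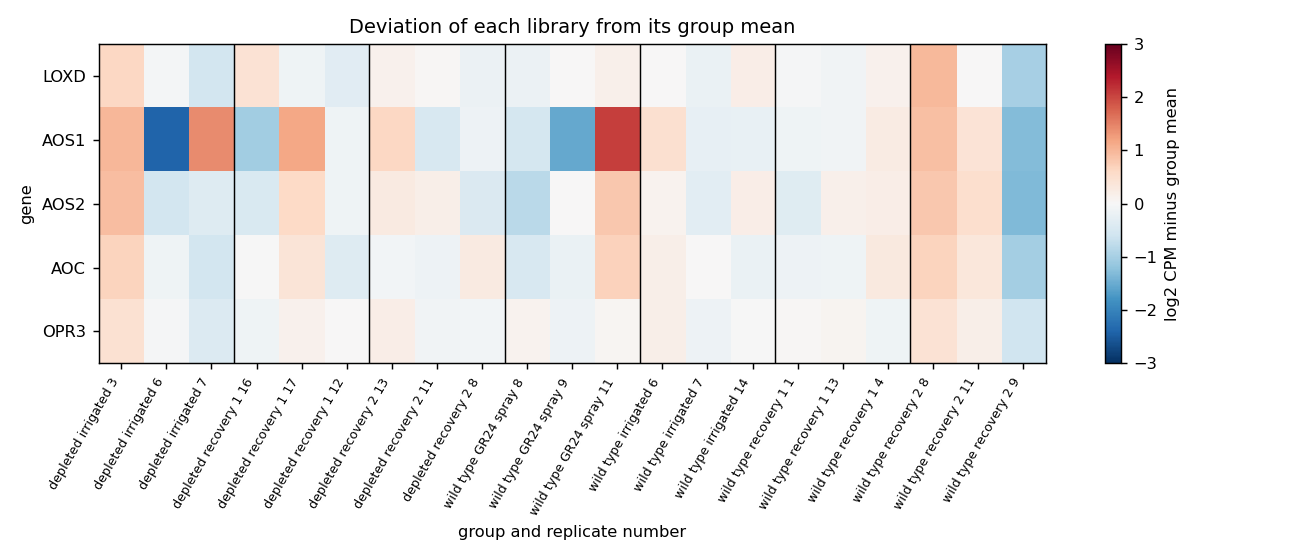
Deviation of log2 CPM from the group mean for each gene (rows) in each of the 21 libraries (columns, grouped by threes), with red above and blue below the mean. Wild-type recovery 2 replicate 8 is red and replicate 9 blue in all 5 rows, and AOS1 holds the widest range, from −2.41 in irrigated depleted replicate 6 to 2.07 in sprayed replicate 11.

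The IDs most like the mean standardised level of the 5 genes over the 21 libraries, by Pearson r as a description, were Solyc01g097520.3 (r = 0.85) and Solyc10g075040.2 (r = 0.80). The least like were Solyc01g005130.2 (r = −0.67) and Solyc06g071430.3 (r = −0.64). These r hold the differences between groups as well as those between replicates. No source used here pairs these IDs with genes.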

How the data were processed

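The deposited file gives the authors' raw counts per gene ID, made with HISAT2 (an aligner) and HTSeq (a read counter), per the submitters' processing notes. For versions, settings and genome build, the sources used here say nothing. A further 6 count columns match no sample label and were not used. The library kit, per the labels NEBNext Ultra, does not mark strand, so antisense reads may be misassigned. Apart from strand, reads shared by paralogs such as AOS1 and AOS2 may be misassigned as well.

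One robust quasi-likelihood fit (edgeR 4.0.16, R 4.3.3) held all 21 libraries, with filterByExpr on 7 groups, TMM factors and 14 residual degrees of freedom. Adjustment was Benjamini-Hochberg over 20373 IDs. The SE is the log2 fold change over the square root of F, and 95% intervals use t with 14 degrees of freedom. The fit was also run on simulated counts in which few IDs changed. It was not tested with as many IDs changed as were called between these genotypes. Log2 CPM used a prior count of 2. Alternatives were RLE and upper-quartile factors, no filter, the compared groups alone, limma-voom (limma 3.58.1), DESeq2 1.42.0, a replicate block and leaving out each library. Correlations between the 5 genes used deviations from group means and 100000 permutations within groups. For levels the 100000 permutations ran over all 21 libraries. The r that ranks other IDs by likeness is over all 21 libraries, without a test. Replicate pairs differed by a chi-square per degree of freedom of 28.9 to 334, so each library counted once.

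The genes and lists were chosen with earlier results of these data known. Named besides the 5 genes are the 2 IDs of highest and the 2 of lowest r. A longer list of pathway genes and of leaf markers was not used, as no source used here pairs them with IDs.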

Additional observations from a re-analysis of the deposited data

How the results depend on the processing

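RLE factors changed no call and no direction of the 5 genes in any of the 13 comparisons. The number of genes called in the depleted line over the wild type at recovery 1 was 1 with DESeq2 and 1 with the compared groups fitted alone, in place of 0, and AOS2 was that gene. At recovery 2 it was 1 with the compared groups alone (LOXD lost at −1.06, adjusted p = 0.104), 0 with limma-voom (LOXD −0.83, adjusted p = 0.0915, and AOS1 −2.66, adjusted p = 0.1), and 0 to 2 without 1 library, in place of 2. For the recovery 2 interaction it was 1, AOS1, with DESeq2 and 1 with the compared groups alone, and 0 to 1 without 1 library. For recovery 2 over irrigation in the depleted line it was 1, AOS1, with DESeq2. For the average over conditions it was 1 to 3 without 1 library, in place of 2. The number of pairs correlated in their deviations from group means was 0 to 5 without 1 library. The replicate block (numbers shared in the labels by irrigated and by recovery 2 groups) gave 1 call in place of 2 at recovery 2, as AOS1 reached −3.74 with an adjusted p of 0.0652, and reversed AOC under irrigation to −0.27 and AOS2 in the recovery 2 interaction to −0.03. It changed no other call. In these groups, deviations of libraries with the same number correlated at −0.05 to 0.06, so the numbers were not taken as pairs. Numbers shared by other groups were not checked.

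Signs turned for values that were not called. Upper-quartile factors gave −0.02 for AOS1 at recovery 1 between genotypes and 0.02 for OPR3 at recovery 2 in the wild type. Without the filter OPR3 was 0.02 at recovery 2 in both genotypes and 0.00 in the recovery 2 interaction. With the compared groups alone OPR3 was 0.00 in the depleted line and 0.01 in the wild type at recovery 2. With limma-voom AOS1 at recovery 1 between genotypes was −0.36, OPR3 at recovery 2 in the depleted line 0.02 and in the interaction 0.09, and AOC after spray −0.04. Leaving out 1 library in turn gave log2 ranges that crossed 0. For the depleted line over the wild type under irrigation these were AOC −0.16 to 0.49. For that at recovery 1 these were AOS1 −0.79 to 0.44. For that at recovery 2 these were AOC −0.54 to 0.15. For its average these were AOC −0.22 to 0.03. For recovery 1 over irrigation in the depleted line these were AOC −0.32 to 0.33, AOS2 −0.56 to 0.41, LOXD −0.16 to 0.47 and OPR3 −0.01 to 0.43. For recovery 2 over irrigation in the depleted line these were AOC −0.36 to 0.29, LOXD −0.34 to 0.26 and OPR3 −0.20 to 0.24. For recovery 2 over 1 in the depleted line these were AOC −0.23 to 0.17, AOS1 −1.22 to 0.02 and LOXD −0.37 to 0.05. For GR24 spray over irrigation these were AOC −0.37 to 0.28, AOS1 −1.15 to 1.21, AOS2 −0.22 to 0.59 and OPR3 −0.09 to 0.07. For recovery 1 over irrigation in the wild type these were AOS1 −0.38 to 0.04, LOXD −0.19 to 0.01 and OPR3 −0.01 to 0.15. For recovery 2 over irrigation in the wild type these were AOC −0.03 to 0.67, LOXD −0.15 to 0.83 and OPR3 −0.24 to 0.23. For recovery 2 over 1 in the wild type these were AOC −0.51 to 0.18, LOXD −0.06 to 0.92 and OPR3 −0.31 to 0.16. For the recovery 1 interaction these were AOS2 −0.17 to 0.81, LOXD −0.07 to 0.56 and OPR3 −0.08 to 0.37. For the recovery 2 interaction these were AOS2 −0.38 to 0.66, LOXD −0.93 to 0.04 and OPR3 −0.24 to 0.26. The count ratio of AOS1 over LOXD ranged from −0.57 to 0.18. The causes were not tested. AOS1 had 10 to 381 counts per library.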
